A study of Mus musculus with 2 samples.

Results

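Imprinted genes are expressed wholly or mainly from the chromosome inherited from 1 parent. The 43 genes described here are a list of imprinted genes of the mouse, chosen by name, and each symbol matched 1 of the 55536 annotated genes of the series. By known parental origin, 22 are usually expressed from the paternal and 16 from the maternal chromosome, and for 5 the expressed allele differs by tissue or by isoform. The RNA came from 2 tissue samples of the left cerebral cortex of male B6CASTF1/J mice, an F1 hybrid of the C57BL/6J and CAST/EiJ strains supplied by The Jackson Laboratory. The mice were 4 days old and untreated as far as the labels say. Each sample gave 1 total RNA library from 300 ng of RNA with ERCC spike-ins, synthetic RNAs of known amount. Both libraries belong to 1 group, so no condition was compared. The labels number the samples as biological replicates 1 and 2 but list both under 1 shared donor number. That they came from 2 animals is therefore an assumption, and the spread given below is that between these libraries.

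Imprinted genes lie in clusters, and each cluster is governed by a control region whose DNA is methylated on 1 parental chromosome. In many clusters a long noncoding RNA runs from the unmethylated control region and keeps neighbouring genes silent on the same chromosome. In the brain these genes are known for roles in growth, neuronal survival, feeding and ubiquitin-dependent protein turnover, and in some clusters imprinting is seen only in neurons. The deposited tables do not separate the parental alleles. Every level below is therefore the sum of both alleles, and none of the values shows by itself that a gene was imprinted in this tissue. The mm10 assembly is that of C57BL/6J, and how completely RNA from the CAST chromosome was counted was not tested.

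Of the 43 genes, 38 reached 1 TPM in both libraries. TPM sets the reads of a gene, per length, against all reads of a library. The same level was reached by 28.0% of all annotated genes and by 59.4% of protein-coding genes. At 100 TPM or more stood 8 of the 43, beside 1.92% of annotated genes and 6.84% of detected genes. These 8 were Meg3, Rian, Gnas, Nnat, Snurf, Snrpn, Inpp5f and Ndn. A further 22 had a mean of 10 to 100 TPM and 9 a mean of 1 to 10 TPM. Asb4, Calcr, Rtl1 and Phlda2 lay under 1 TPM, and Ddc did so in replicate 2. The median over all 43 genes was 26.8 TPM, and over the 38 detected ones 31.1 TPM, beside 14.4 TPM for all detected genes and 17.6 TPM for detected protein-coding genes. Together the 43 genes took 0.710% of the counts of annotated genes in replicate 1 and 0.715% in replicate 2, and Meg3 alone held 30.7% and 30.5% of that share. The 16 genes known as maternally expressed had a median of 29.8 TPM and the 22 paternally expressed ones 17.8 TPM. Their ranges, 0 to 1109 and 0.035 to 685 TPM, overlapped over most of their width. Because the tissue is a mixture of cells, fewer cells that express a gene and less RNA per cell cannot be told apart in any of these levels.

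**Figure D1:**
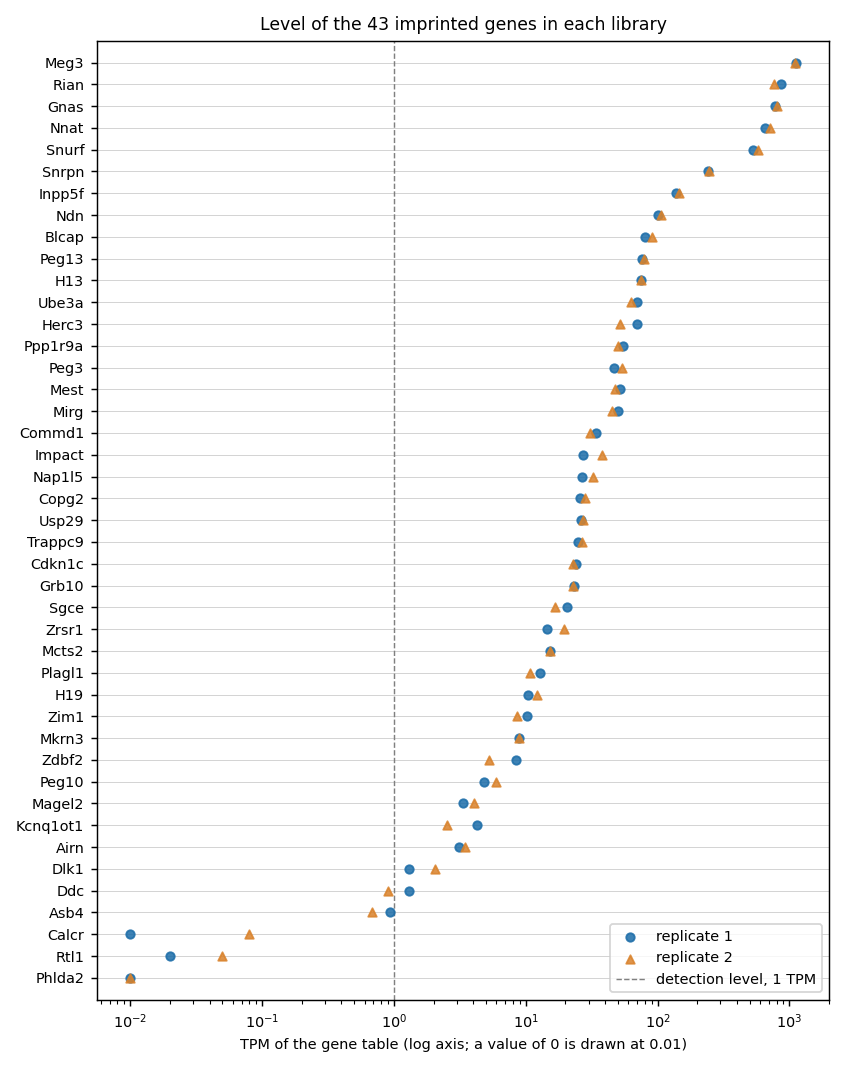
Level of each of the 43 genes in both libraries, in TPM on a log axis, with genes in order of their mean and a value of 0 drawn at 0.01. Meg3 is at the top with 1124 and 1094 TPM, the libraries lie close together for most genes, and only Asb4, Calcr, Rtl1 and Phlda2 lie under the dashed line of 1 TPM in both libraries, with Ddc on either side of it.

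The libraries held 26897687 and 29511737 expected counts, so a gene with no read may have up to 3 counts, or 0.112 and 0.102 CPM. Excitatory neuron markers were detected in 10 of 10 cases, among them Slc17a7, a vesicular glutamate transporter, at 133 and 159 TPM. By the exact binomial test between the libraries described below, which called 13.9% of all genes higher and 12.8% lower in replicate 2, 2 of these 10 were called higher there and 4 lower. Most markers of striatum, olfactory bulb, interneurons, astrocytes and radial glia, and blood were called higher in replicate 2. The summed level of 10 striatal markers was 111 and 175 TPM, and all 10 were called higher. The summed level was 368 and 472 TPM over 9 interneuron markers, with 8 called higher. It was 1160 and 1237 TPM over 8 markers of astrocytes and radial glia, of which 7 were called higher and 1 lower, at a median log2 ratio of 0.20. The 7 olfactory bulb markers summed to 17.7 and 53.5 TPM, 6 of them called higher, and the 6 blood markers to 216 and 456 TPM, 5 of them called higher. Of 8 choroid plexus markers 2 were detected, 6 could be tested and 2 were called higher, and Ttr, which carries thyroid hormone, stood at 1.03 and 32.4 TPM. The 12 hypothalamic markers summed to 5.53 and 6.98 TPM, with 1 detected, Trh, a releasing hormone, at 1.23 and 2.46 TPM. Trh was also the 1 gene called higher of the 6 that could be tested, and none was called lower. Meningeal markers went the other way, 556 and 516 TPM over 10 genes, with 6 called lower in replicate 2 and 1 higher.

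2 noncoding RNAs of the Dlk1-Dio3 cluster, Meg3 and Rian, held the highest levels among the 43 genes. Meg3 (chr12:109541001-109571726), a maternally expressed RNA that restrains growth of many cell types, stood at 1124 TPM in replicate 1 and 1094 TPM in replicate 2, from 58419 and 64042 expected counts. Its mean of 1109 ± 21.3 TPM (SD, n = 2) placed it 55th among all annotated genes. Rian, the next RNA along the same chromosome and a host of small nucleolar RNAs, stood at 856 and 763 TPM. Mirg, a host of microRNAs further along, stood at 49.96 and 45.0 TPM, and Meg3 exceeded it 23.3-fold on the scale of TPM + 0.1. The levels thus fell along the cluster in the order Meg3, Rian, Mirg in both libraries of the gene table. In the second deposited quantification, treated below, Rian stood above Meg3 instead, at 1401 and 1267 TPM against 1122 and 1189 TPM.

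The small RNAs that these hosts carry had almost no reads of their own. Inside Rian, 17 annotated small RNA genes lie on the same strand, 13 of them for small nucleolar RNAs, and only Mir1188 had reads, 8 and 5. The 14 microRNA genes inside Mirg and the 2 inside Meg3 were listed at 0 in both libraries. So were Mir675 inside H19 and the microRNA gene inside Mest. The 17 Snord116 genes of the Snrpn cluster, whose loss is a known cause of Prader-Willi features, were listed at 0 as well. How far these libraries keep RNAs of that size was not tested.

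The paternally expressed partners of Meg3 were low. Dlk1, a membrane ligand that resembles Notch ligands, stood at 1.31 and 2.05 TPM from 27 and 49 counts. Rtl1, a protein derived from a retrotransposon that is known from placenta and muscle, had 2 and 6 counts. Meg3 exceeded Dlk1 by 9.64 and 8.99 on the log2 scale in the 2 libraries.

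The other noncoding RNAs spanned a wide range. Peg13 (chr15:72805600-72810324), a paternally expressed RNA inside an intron of Trappc9, stood at 76.8 and 78.4 TPM. H19, a maternally expressed RNA that is high in the embryo, stood at 10.4 and 12.1 TPM. Kcnq1ot1 (chr7:143203458-143296549), the RNA that silences its cluster on the paternal chromosome, stood at 4.29 and 2.53 TPM. Its annotated transcript is a single unspliced one of 93092 bases, so this low level rested on 6797 and 4540 expected counts. Kcnq1, the gene it crosses on the opposite strand, had 26 and 29 counts. Airn, the RNA that silences Igf2r in many tissues, stood at 3.11 and 3.48 TPM from 55 and 58 counts. Igf2r, a receptor that clears growth factor from the cell surface and which Airn overlaps, stood at 17.6 and 15.7 TPM. Peg13 stood above the other 3 in both libraries, and Kcnq1ot1 and Airn changed places between the libraries in the gene table. In the second quantification Airn was above Kcnq1ot1 in both, at 11.2 and 10.7 against 7.18 and 4.39 TPM.

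Both members of the Snrpn-Snurf unit were among the 8 highest, with a reservation about Snurf. SNRPN is a protein of the spliceosome core made mostly in neurons, and SNURF is a short protein read from an upstream frame of the same transcript. Snrpn (chr7:59982495-60140219) stood at 242 and 246 TPM from 7603 and 8733 counts. Snurf (chr7:59995449-60005049) stood at 533 and 579 TPM from 1062 and 1305 counts. It is annotated as a single transcript of only 216 bases, shown here with its first and last codon in capitals because all of it lies within another gene:

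Snurf-201: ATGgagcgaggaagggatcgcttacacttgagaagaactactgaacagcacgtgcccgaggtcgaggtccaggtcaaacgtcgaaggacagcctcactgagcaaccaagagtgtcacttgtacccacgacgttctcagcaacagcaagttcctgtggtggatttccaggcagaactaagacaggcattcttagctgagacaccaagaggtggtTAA

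This run of bases occurs whole in 1 of the 2 annotated Snrpn transcripts, Snrpn-201, and all of its 31-base words also occur in Gm38393, an overlapping gene model at 44.8 and 44.1 TPM. The second quantification listed Snurf at 0 in both libraries. It gave Snrpn 325 and 340 TPM, 100% and 99.9% of it in Snrpn-202, the transcript that lacks the Snurf sequence. The gene table gave 91.7% and 94.4% of Snrpn to Snrpn-201. The levels of Snurf and of the single Snrpn transcripts are therefore uncertain, since the reads can be shared among these models, while Snrpn as a gene stood at 242 TPM or more in either table.

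Ube3a, the ubiquitin ligase lost in Angelman syndrome and expressed from the maternal chromosome in neurons, stood at 70.0 and 62.9 TPM. Its level was below that of Snrpn in both libraries, 3.67-fold on average. Snhg14, the paternal RNA known to run across Ube3a on the opposite strand, stood at 532 and 463 TPM from 11803 and 11459 counts. As annotated here it spans chr7:59307924-59975759 and meets only the end of Ube3a, which lies at 59311536. Exons of all gene models on the opposite strand together cover 27.3% of the exon bases of Ube3a. Whether the authors' counting used strand is not stated in the sources used here, so reads of Ube3a and of antisense RNAs cannot be told apart with certainty.

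The 3 single-exon genes at the other end of this cluster differed widely. Ndn, which encodes necdin, a factor that restrains division of neurons, stood at 101 and 107 TPM. Mkrn3, a ubiquitin ligase that holds back puberty, stood at 8.95 and 8.82 TPM. Magel2, a partner of ubiquitin ligases with a role in hypothalamic neurons, stood at 3.33 and 4.03 TPM. Ndn exceeded Mkrn3 11.6-fold and Magel2 27.6-fold, and the order of Ndn, Mkrn3 and Magel2 was the same in both libraries and both quantifications.

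Among the genes for growth and signalling, Gnas stood far above the rest. Gnas (chr2:174284320-174346744) encodes the stimulatory G protein subunit that links receptors to adenylyl cyclase, and other proteins and RNAs from further start sites. It stood at 775 and 800.2 TPM. Start sites within 1000 bases of each other were joined into 1 region, which gave Gnas 6 start regions. The fourth, 45686 bases after the first, held 96.7% and 96.8% of its TPM. The third, known for the transcripts that carry exon 1A, held 1.45% and 1.69%. The first, the start of the maternal Nesp transcripts, held 0.520% and 0.541%, and the second, the start of the paternal XL transcripts, held 0.0155% and 0.0225%. In the second quantification the fourth region held 80.7% and 81.8% and the third 18.3% and 16.4%, so the order of the fourth and the third was the same. The start region that is expressed from both alleles in most tissues thus carried most of the RNA counted for Gnas.

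Exons on the opposite strand cover 21.97% of the exon bases of Gnas and 30.7% of those of Cdkn1c, so with the use of strand not stated their levels may hold reads of antisense genes. Cdkn1c, an inhibitor of cyclin-dependent kinases, stood at 23.9 and 23.0 TPM, and 27.2% of its 31-base words occur in Gm44732, a gene model on the opposite strand. Its relatives Cdkn1b and Cdkn1a, which are not imprinted, stood at 31.1 and 28.3 TPM and at 14.8 and 17.8 TPM. Grb10, an adaptor that dampens insulin signalling and is expressed from the paternal chromosome in neurons, stood at 23.1 and 22.7 TPM. Its second start region held 71.2% and 66.9% of that level, and the fourth, 11951 bases after the first, 18.4% and 27.4%. Which of these regions is used on the paternal chromosome was not tested, so the larger share is not to be read as paternal. Impact, a regulator of translation under amino acid shortage that is high in neurons, stood at 27.1 and 38.1 TPM, higher in replicate 2.

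Phlda2, a brake on placental growth, had no read in either library. Phlda1 and Phlda3 of the same family stood at 9.44 and 10.7 TPM and at 5.58 and 5.83 TPM. Calcr, the calcitonin receptor, had 0 and 5 counts. Both are thus at or near the limit that these depths set.

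Peg3 and Usp29 run in opposite directions from starts 147 bases apart. Peg3, a paternally expressed zinc finger factor known for its role in maternal behaviour, stood at 47.1 and 54.1 TPM. Usp29, a ubiquitin-specific protease, stood at 26.5 and 27.2 TPM. Peg3 was thus the higher of this pair in both libraries, 1.88-fold on average, and 1.78-fold in the second quantification. The start region shared by both genes is shown from the RefSeq window of Usp29, chr7:6730333-6730632 on the plus strand of GRCm38, with the bases between the first bases of the 2 genes in capitals:

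Usp29: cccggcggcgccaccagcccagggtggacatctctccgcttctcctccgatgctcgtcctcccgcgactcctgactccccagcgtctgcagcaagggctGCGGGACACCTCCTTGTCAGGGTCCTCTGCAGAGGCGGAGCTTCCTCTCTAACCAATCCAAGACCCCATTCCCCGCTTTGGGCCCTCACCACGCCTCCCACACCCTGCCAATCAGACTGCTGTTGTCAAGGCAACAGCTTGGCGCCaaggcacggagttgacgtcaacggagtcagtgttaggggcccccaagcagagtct

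This first start region held 97.8% and 89.4% of the Peg3 TPM and 90.8% and 94.5% of the Usp29 TPM. The window holds 17 CpG dinucleotides, beside a median of 7 over all 32851 RefSeq windows of 300 bases. Zim1, a maternally expressed zinc finger gene next to Peg3, stood at 10.3 and 8.55 TPM and was 5.34-fold below Peg3.

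Peg10 and Sgce form a second pair of this kind, with starts 99 bases apart. Peg10, a paternal gene derived from a retrotransposon and needed in placenta, stood at 4.81 and 5.96 TPM. Sgce, a sarcoglycan whose loss causes myoclonus dystonia, stood at 20.5 and 16.7 TPM. Sgce was the higher of this pair in both libraries, 3.41-fold on average. Of the neighbours of this pair, Ppp1r9a, which encodes the actin-binding protein neurabin of dendritic spines, stood at 54.9 and 49.8 TPM. Asb4, a part of ubiquitin ligases, stood at 0.94 and 0.68 TPM from 35 and 33 counts. The 5 genes of this cluster on chromosome 6 thus ran from near 0 for Calcr to a mean of 52.4 TPM for Ppp1r9a.

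Plagl1, a zinc finger factor that regulates other imprinted genes, stood at 12.8 and 10.7 TPM. Zdbf2, a paternal gene of the brain, stood at 8.42 and 5.23 TPM, higher in replicate 1. Its first start region, 17473 bases before the second, held 74.7% and 54.7% of the level. In the second quantification it held 67.7% and 80.6%, so this region led in both tables while the order of the libraries was opposite.

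Several imprinted genes, retrogenes among them, lie within introns of host genes. In 5 cases here the nested gene and its host are both on the list, and a paternally expressed nested gene stands beside a host that is maternally or biallelically expressed. Nnat (chr2:157560078-157562522), a small membrane protein of developing neurons, stood at 658 and 713 TPM, and its host Blcap at 80.4 and 91.1 TPM. This was the pair with the highest nested gene, 7.99-fold above its host. Peg13 stood 2.99-fold above its host Trappc9, which regulates vesicle traffic and was at 24.9 and 26.9 TPM.

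The 3 other nested genes stood below their hosts. Nap1l5, of the nucleosome assembly protein family, stood at 26.7 and 32.4 TPM, and its host Herc3, a HECT-type ubiquitin ligase, at 69.7 and 51.7 TPM. Zrsr1, a splicing factor of the U2AF family, stood at 14.4 and 19.7 TPM, and its host Commd1, a regulator of copper balance, at 34.3 and 30.8 TPM. Mcts2, a translation regulator, stood at 15.2 and 15.4 TPM, and its host H13, a signal peptide peptidase, at 74.5 and 74.6 TPM. The nested gene was lower in both libraries and both quantifications. The mean over the libraries was 2.04-fold, 1.93-fold and 4.85-fold in the gene table and 2.56-fold, 1.98-fold and 4.78-fold in the second quantification.

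Host transcripts were then split by whether they run across the nested gene, because known host isoforms stop short of it on 1 parental chromosome. For H13, transcripts that span Mcts2 held 69.1% and 70.3% of the level, and those that end before it 28.6% and 26.4%. Of the latter, H13-206, a model annotated as retaining an intron, held 16.8% and 16.1%, and the protein-coding H13-203 held 11.8% and 10.3%. The second quantification gave 69.0% and 68.7% for the spanning transcripts. For Herc3, 1 transcript spans Nap1l5 and held 40.8% and 42.4%, while 10 that end before it held 58.7% and 56.0%. Most of the latter share lay in short models of 446, 676 and 374 bases. These held 20.4%, 13.7% and 15.1% in replicate 1 and 19.5%, 15.2% and 7.52% in replicate 2. They end at or before 58854878, while Nap1l5 begins at 58905233. A model of 3596 bases that ends at 58904081 held 1.45% and 2.74%. How much of the Herc3 and H13 shares comes from the known short isoforms was not tested. Transcripts that span the nested gene held 75.7% and 73.2% of Blcap and 96.6% and 94.0% of Trappc9. For Commd1 they held 85.4% and 84.3% in the first quantification but 48.0% and 55.3% in the second. H13 and Herc3 thus had the largest shares of transcripts that end before the nested gene among the 5 hosts, in the first quantification as in the second.

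**Figure D2:**
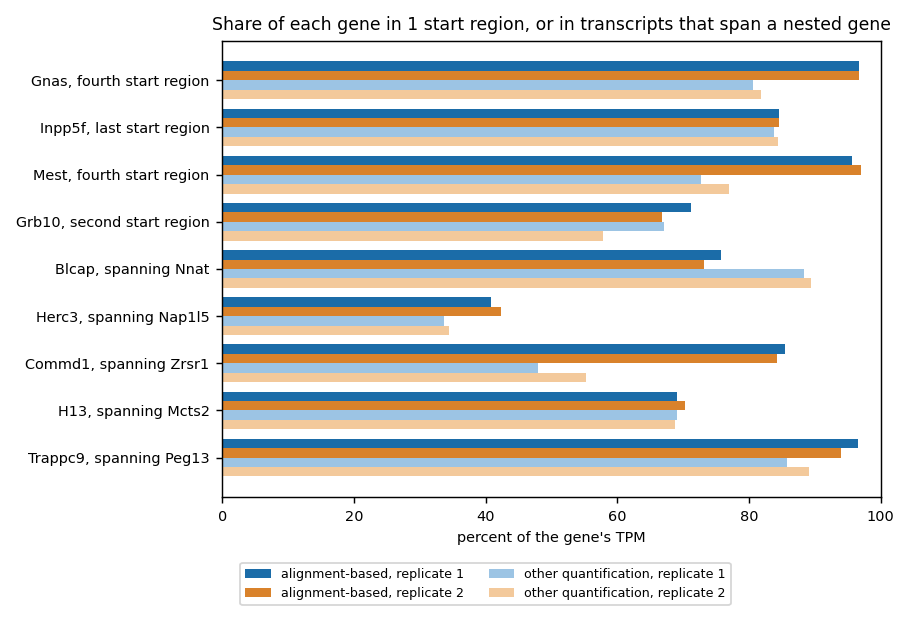
Percent of the TPM of a gene that lies in 1 start region (upper 4 genes) or in transcripts that span a nested gene (lower 5 genes), with 4 bars per gene for 2 libraries in each of 2 quantifications. The fourth Gnas region holds 96.7% and 96.8% in the first quantification, Herc3 has the shortest bars, and Commd1 is the gene whose bars differ most between quantifications.

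Parent genes or relatives of the retrogenes were expressed alongside them. Mcts1, the X-linked parent of Mcts2, stood at 49.5 and 42.3 TPM, and the longest open frames of both genes, 546 bases each, were identical at 85.2% of positions. Zrsr2, the X-linked relative of Zrsr1, stood at 19.2 and 24.8 TPM, with 80.0% identity over the aligned positions without gaps. Over all 1631 positions, 349 of them gaps, the identity was 62.8%. Nap1l1 stood at 114 and 119 TPM, and the frame of Nap1l5 was identical to it at 62.0% of the positions without gaps. The frames measure 471 bases for Nap1l5 and 1257 for Nap1l1, so 786 of 1257 positions were gaps. The identity over all positions was 23.2%. Mcts1, Zrsr2 and Nap1l1 were each above the retrogene set beside them in both libraries. Which family member is the parent of Nap1l5 was not tested. Its relatives Nap1l2, at 22.7 and 22.4 TPM, and Nap1l3, at 21.8 and 22.9 TPM, were below it in both libraries. Of the 31-base words of the retrogenes, 6.24% for Mcts2, 8.19% for Zrsr1 and 0 for Nap1l5 occur in any other gene, and the remaining words are unique to the retrogene.

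The RefSeq start windows of Mest, Nap1l5 and Nnat are printed because the control regions of these genes are known binding places of ZFP57, the zinc finger protein that keeps imprints methylated, and Zfp57 itself was expressed here at 109 and 95.7 TPM. Each window runs from 250 bases before to 50 after the RefSeq start, on GRCm38. Capitals mark the hexamer TGCCGC, known as the core of the ZFP57 motif, or its reverse complement GCGGCA. The windows are Mest at chr6:30737800-30738099 on the plus strand, Nap1l5 at chr6:58907077-58907376 on the minus strand and Nnat at chr2:157559828-157560127 on the plus strand.

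Mest: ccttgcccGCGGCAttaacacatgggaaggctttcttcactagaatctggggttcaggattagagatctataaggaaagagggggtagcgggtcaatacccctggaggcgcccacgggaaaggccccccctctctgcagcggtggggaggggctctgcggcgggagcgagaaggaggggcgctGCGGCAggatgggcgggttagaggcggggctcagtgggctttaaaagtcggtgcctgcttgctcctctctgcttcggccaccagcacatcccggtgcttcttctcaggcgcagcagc
Nap1l5: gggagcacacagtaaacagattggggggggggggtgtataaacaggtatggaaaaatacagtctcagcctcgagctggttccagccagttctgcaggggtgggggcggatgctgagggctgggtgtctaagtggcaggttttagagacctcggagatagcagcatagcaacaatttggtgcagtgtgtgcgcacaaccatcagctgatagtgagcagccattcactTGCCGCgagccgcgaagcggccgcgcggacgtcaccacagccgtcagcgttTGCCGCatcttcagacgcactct
Nnat: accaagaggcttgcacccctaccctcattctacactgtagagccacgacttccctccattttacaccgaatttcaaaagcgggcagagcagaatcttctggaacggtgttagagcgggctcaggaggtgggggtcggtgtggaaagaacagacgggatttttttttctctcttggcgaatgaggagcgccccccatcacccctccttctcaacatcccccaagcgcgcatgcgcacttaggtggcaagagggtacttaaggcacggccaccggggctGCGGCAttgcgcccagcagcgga

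Mest and Nap1l5 had 2 matches each and Nnat 1. These windows do not stand for the list, since those of Peg3, Usp29, Kcnq1ot1, Airn and Gnas, among others, had no match. Over both strands, 2 or more matches were found in 1.53% of all windows. A RefSeq window was found for 35 of the 43 genes, and 14 of these had a match in at least 1 window, beside 13.1% of the 27025 genes with a window and 23.0% of the detected ones. Among the 14, Snrpn and Snurf share the same window. For these genes, Zdbf2 and Mcts2, the RefSeq start of the matching window was not close enough to a counted start region to be joined to it. The Mcts2 window, chr2:152686898-152687197, still holds the annotated Mcts2 start at 152687035. The window of Snrpn and Snurf begins at 60005150, near the Snrpn-201 start at 60005111. Start regions were not counted for Calcr, also among the 14, because it was not detected. The shares were not matched for CpG content or for the number of windows per gene, so whether the list is enriched was not tested. A match is a run of letters, not a bound site, and DNA methylation was not measured here.

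Mest, a paternal gene of the hydrolase family, stood at 52.1 and 47.7 TPM. The start region of the printed window held 95.6% and 97.1% of that level in the first quantification and 72.7% and 77.0% in the second. Copg2, a coat protein of Golgi vesicles whose last exons overlap those of Mest on the opposite strand, stood at 26.0 and 28.2 TPM. Of the 31-base words of Mest 21.96% occur in Copg2, so part of the reads of either gene could be assigned to the other. Copg1, its relative elsewhere in the genome, stood at 78.9 and 85.7 TPM.

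Inpp5f (chr7:128611328-128696425) encodes a phosphatase of membrane lipids, and its short variant from an inner start is the paternally expressed product in brain. It stood at 137 and 145 TPM. The last of its 6 start regions, 76218 bases after the first, held 84.6% and 84.6% of the level. The first, where the full-length transcripts begin, held 8.83% and 10.3%. The second quantification gave 83.9% and 84.5% for the last region, so the inner start held most of the level in either table. Ddc, which makes dopamine and serotonin from their precursors, stood at 1.30 and 0.90 TPM from 35 and 32 counts, 19.4-fold below its neighbour Grb10.

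Ratios within clusters were taken for 21 pairs of genes. A pair was called ordered where the sign was equal in both libraries and the mean log2 ratio was above 2 SD. All 21 pairs were ordered in the gene table, among them those against Rtl1 and Phlda2, whose counts are too low for a fold. In the second quantification 20 were ordered. The exception was Meg3 over Rian, at 0.39 and 0.52 on the log2 scale in the gene table and at -0.32 and -0.09 in the second quantification. Snrpn over Snurf also turned its sign, because Snurf was listed at 0 there. With 2 libraries a sign test cannot give a p below 0.5, so the pairs carry no p-value.

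**Figure D3:**
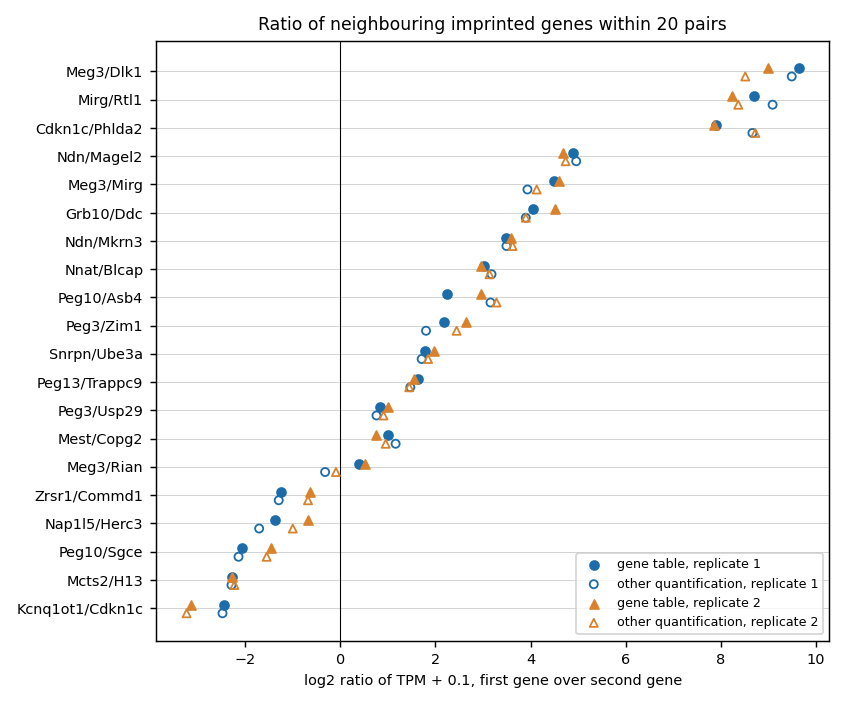
log2 ratio of TPM + 0.1 of the first over the second gene for 20 pairs within clusters, with filled symbols for the gene table and open ones for the second quantification, 1 symbol per library. Symbols of a pair lie on 1 side of the zero line for each pair but Meg3/Rian, whose open symbols lie to the left of it. Snrpn/Snurf is left out because Snurf was listed at 0 in the second quantification.

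The libraries were then compared gene by gene. A two-sided exact binomial test on expected counts, scaled by TMM library sizes and adjusted by Benjamini-Hochberg over 20385 genes with 10 or more counts, called 27 of the 40 genes that could be tested. The same test called 26.7% of all genes. The share rises with depth, to 36.6% of genes with 200 or more counts, where 27 of 36 of the list were called, and to 44.4% with 1000 or more, where 24 of 30 were. Of the 27, 20 were higher and 7 lower in replicate 2, beside 13.9% and 12.8% of all genes, but when the libraries were scaled by the spike-ins 8 were called higher and 12 lower, beside 5.80% and 22.7% of all genes. Under total counts the numbers were 17 and 8. Across TMM, total counts, DESeq2 size factors and spike-ins, 8 genes were called higher each time (5.80% of all genes) and 7 lower each time (11.4%). A change of scaling shifts the ratios of all genes by about the same amount, so these scalings are not separate checks. Under spike-ins alone, where the ratios were lowest, the same 8 genes were called higher. Under DESeq2 size factors alone, where the ratios were highest, the same 7 were called lower. The 8 were Nnat, Blcap, Peg3, Peg10, Impact, Inpp5f, Nap1l5 and Zrsr1, and the 7 were Rian, Ube3a, Zim1, Sgce, Kcnq1ot1, Zdbf2 and Herc3.

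The differences were small. The median log2 ratio of replicate 2 over replicate 1 was 0.08 over the 40 genes and -0.0029 over all genes tested, and it was -0.011 for the 40 under spike-in scaling. Their spread, as a scaled median absolute deviation, was 0.20, beside 0.27 over all genes tested. Kcnq1ot1 was the 1 gene of the 40 called at 1.5-fold or more, as were 5.57% of all genes. Its log2 ratio was -0.69 ± 0.028 (SE from counting, adjusted p = 9.08e-136, exact binomial test), or 1.61-fold lower in replicate 2. Zdbf2 had a log2 ratio of -0.44 ± 0.061 (adjusted p = 2.05e-11, exact binomial test) and Zim1 of -0.34 ± 0.092 (adjusted p = 0.00164). Of the genes that were higher, Zrsr1 had the largest log2 ratio, 0.39 ± 0.073 (adjusted p = 1.19e-06), then Peg10 with 0.37 ± 0.082 (adjusted p = 5.19e-05, exact binomial test). The 13 genes that were not called lay between -0.23 and 0.74, and Dlk1 had the highest of these on 27 and 49 counts.

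This test takes counting as the only source of noise. In edgeR's exact test with a biological coefficient of variation of 10.9%, estimated from both libraries in an intercept-only fit, none of the 40 genes had an adjusted p under 0.05, beside 0.694% of all genes. Only Kcnq1ot1 had an unadjusted p under 0.05 in that test, as had 6.28% of all genes, and its adjusted p was 0.148. The coefficient was estimated from the same 2 libraries, so it holds the difference that is tested, and a spread apart from it cannot be had. The marker lists given above moved between the same libraries, with most striatal, olfactory bulb, interneuron, astrocyte and blood markers called higher in replicate 2, most meningeal ones lower, and excitatory neuron markers in both directions. Their part in these ratios was not tested.

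**Figure D4:**
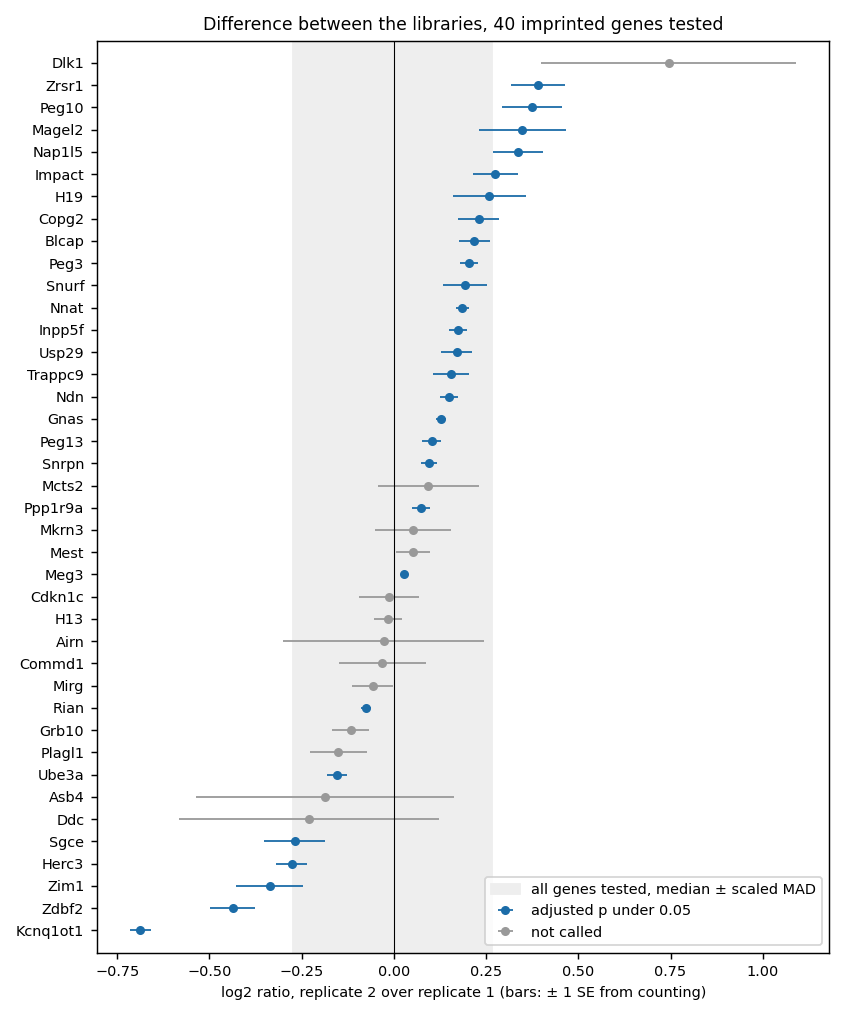
log2 ratio of replicate 2 over replicate 1 with the standard error from counting for the 40 genes tested, under TMM scaling. The grey band is the median ± scaled median absolute deviation of all genes tested, Kcnq1ot1 lies farthest to the left at -0.69, and 20 called genes lie above 0 and 7 below, which becomes 8 and 12 under spike-in scaling.

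The authors deposited 2 quantifications of the same libraries, which differed by a common shift for most of these genes. Over 18293 genes the second table, summed over transcripts, was 1.49-fold and 1.52-fold above the gene table in the median. At 2-fold or more in both libraries, 4 of 39 genes differed, beside 17.9% of all genes compared. These were Snurf, Airn, Impact and Inpp5f. Airn stood at 11.2 and 10.7 TPM in the second table, Impact at 63.9 and 82.3 TPM and Inpp5f at 276 and 303 TPM. Set against the common shift, only Snurf differed, beside 12.1% of all genes. Meg3 was the detected gene that, after Snurf, lay lowest against the shift in both libraries, at -0.57 and -0.48 on the log2 scale. Meg3-203, a transcript of 457 bases, had 208 and 201 TPM in the first quantification and was listed at 0 in the second.

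**Figure D5:**
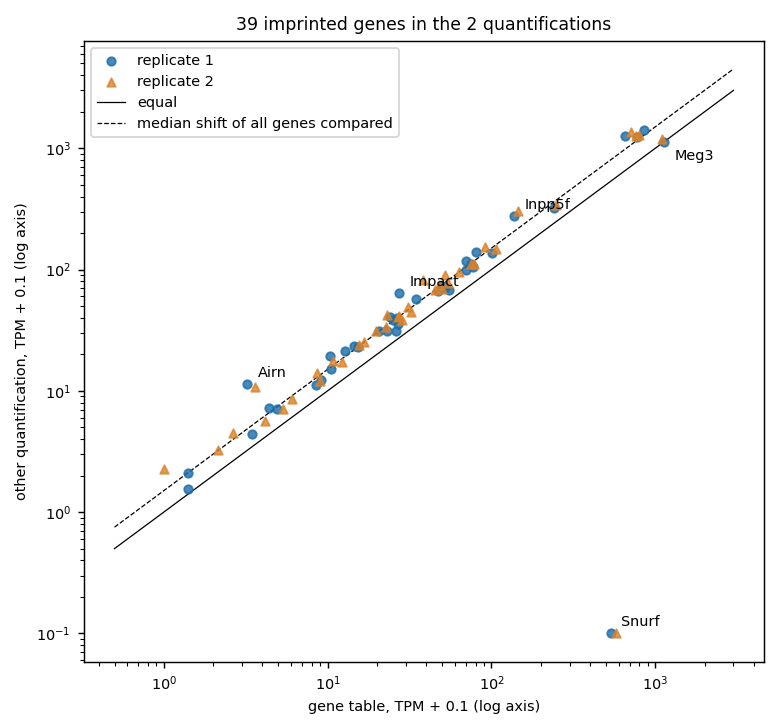
TPM + 0.1 of 39 genes in the gene table (horizontal, log axis) and in the second quantification (vertical, log axis), 1 symbol per library. Most genes lie along the dashed line of the common shift, Meg3 lies on the line of equality, and Snurf lies at the bottom because it was listed at 0.

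Single transcripts were less certain than genes. The leading transcript of the 38 detected genes held 56.0% of its gene in the median. This includes genes with a single annotated transcript, whose share is 100% by definition. Of the 31 genes with several annotated transcripts, 28 had the same leader in both libraries. Between the quantifications 22 of the 31 had the same leader. Nnat was led by Nnat-205 with 49.9% and 52.7% in the first table and by Nnat-210 with 63.5% and 65.3% in the second. The others whose leader differed were Airn, Blcap, Cdkn1c, Herc3, Inpp5f, Mirg, Peg10 and Snrpn. Gnas, Meg3, Mest, H13, Peg3 and Grb10 were among those that kept it.

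Of a further 41 imprinted genes outside the list 26 were detected, beside 28.0% of annotated and 59.4% of protein-coding genes. Their median over all 41 was 5.33 TPM. Igf2, a fetal growth factor expressed from the paternal chromosome in most tissues, led at 176 and 143 TPM, then Cd81, a membrane organiser, at 124 and 126 TPM, and Nap1l4, a nucleosome assembly protein, at 88.3 and 85.1 TPM. The lowest detected one was Slc38a4, an amino acid transporter, at 1.54 and 1.24 TPM. By the exact binomial test 6 of the 33 that could be tested were higher and 9 lower in replicate 2, beside 13.9% and 12.8% of all genes. Igf2 was among the lower ones, with a log2 ratio of -0.26 ± 0.026 (adjusted p = 2.22e-21), as were 6 of 10 meningeal markers and 12.8% of all genes. How far meningeal cells bear on this value was not tested.

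Of 24 genes that set or keep imprints, 20 were detected. Trim28, the co-repressor that ZFP57 recruits, led at 206 and 204 TPM, then Ehmt2, a histone methyltransferase, at 116 and 115 TPM, and Zfp57. Dnmt3b, a DNA methyltransferase of early development, was the lowest detected one at 1.38 and 1.49 TPM. The 4 genes that were not detected, named after their values were seen, were Dnmt3l, Zfp42, Dppa3 and Ctcfl. Each had at most 1 count in either library, and each is known from germ cells or the early embryo. Of the 20 that could be tested, 2 were called higher and 7 lower in replicate 2, beside 13.9% and 12.8% of all genes.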

How the data were processed

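The 43 genes, the other lists and the pairs were chosen with earlier results of these data known. The authors deposited, per the file headers, a gene table and 2 transcript tables for each library. Per the file headers, expected counts and TPM fill the gene table and the first transcript table, which adds the percent of its gene for each transcript. Per the file headers, the second quantification has estimated counts with TPM. The deposited notes name mm10 and GENCODE M21. The sources used here name neither the quantifiers nor their use of strand.

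The tables held 97 spike-in rows (0.323% and 0.351% of counts) and 26248 unnamed rows with 6 and 2 counts, all left out of tests. Detection meant 1 TPM in each library. Expected counts were rounded, scaled with TMM (edgeR 4.0.16, R 4.3.3) and compared by a two-sided exact binomial test (scipy 1.17.1) with Benjamini-Hochberg adjustment and a threshold of 0.05. Log2 ratios used a prior count of 0.5, pair ratios a pseudocount of 0.1. The test compares 2 libraries, and the standard error covers counting only. The test was also run on simulated counts that had no spread between libraries beyond counting. That run therefore shows nothing about its calls where libraries differ by more than counting. DESeq2 1.42.0 gave size factors only. Shared words are runs of 31 bases of M21 transcripts. Sequences came from M21 and from RefSeq windows of GRCm38.p6, with matched symbols for 35 genes.

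The rule allowed all 43 genes, the 3 highest and the lowest detected gene of each list, and retrogene parents and family relatives compared with a member to be named. Not all of these were named, and a marker is not reported here. Snhg14, Gm38393, Gm44732, Kcnq1, Igf2r, Mir1188, Mir675 and the Snord116 genes were chosen after their values were seen.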

Additional observations from a re-analysis of the deposited data

How the results depend on the processing

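No paired analysis was possible because both libraries belong to 1 group. Of the 43 genes, 33 to 40 were detected over thresholds of 5 and 0.5 TPM, the second quantification, posterior mean TPM and single libraries (38 and 39). The median of 26.8 TPM became 39.2 TPM in the second quantification and 31.1 TPM over detected genes, and was 26.0 to 27.2 TPM in single libraries. The count of 27 genes called between the libraries lay between 20 and 27 under the other scalings, filters and counts, and was 0 in edgeR's exact test with dispersion, an alternative added after the data were seen. It cannot be had without either library. Under spike-in scaling 8 were higher and 12 lower. Meg3 turned from 0.03 to -0.00082 under total counts and to -0.067 under spike-ins, and Ppp1r9a from 0.07 to -0.021 under spike-ins, where 10 further calls were lost and 4 gained. The cause was not tested. The count of 4 genes that differ between quantifications was 1 against the common shift, also added later, and 4 to 5 in single libraries. The pair ratio Meg3/Rian turned from 0.46 to -0.21 and Snrpn/Snurf from -1.19 to 11.7 in the second quantification, the latter because Snurf is listed at 0 there. Of 21 pairs, 20 were ordered in the second quantification and 21 with a pseudocount of 1. Single libraries give each pair a sign but no SD, so they are no check of the order. The median share of the leading transcript, 56.0% with genes of a single transcript included, was 52.5% in the second quantification and 55.3% to 58.5% in single libraries. The 26 other imprinted genes detected became 27 to 28.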
